A study of Mus musculus with 15 samples.

Results

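The cells described here are 216 nuclei from tissue punches enriched for the dorsal hippocampal formation (dHF). They were picked out of 133236 nuclei by a fixed set of counts for genes of young neurons. A nucleus was taken when it had at least 500 genes, at least 3 unique molecular identifiers (UMIs) of Dcx, at least 2 UMIs of Igfbpl1, Sox11 and Draxin together and at least 1 UMI of Prox1. It also had no UMI of Dlx1, Dlx2 or Dlx6os1, at most 1 UMI of Gad1 and Gad2 together, and at most 2 UMIs of Top2a and Mki67 together. The nuclei were selected under the working name of dentate neuroblasts and immature granule neurons, with Dcx, Sox11, Draxin, Prox1 and Calb2 as markers. The counts that chose them are a description of them and are not tested below.

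The dentate gyrus keeps neural stem cells into adult life, and these give rise to dividing progenitors, then to neuroblasts that leave the cell cycle, and then to granule neurons that grow an axon towards CA3. Dcx encodes doublecortin, a microtubule protein of migrating and growing neurons, and Sox11 encodes a transcription factor of the same stage. Prox1 encodes the transcription factor that gives granule neurons their identity and is kept in the mature cell, whereas Calb2 (calretinin) marks a short stage after the last division and Calb1 (calbindin) marks mature granule neurons.

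The nuclei came from micropunches of 15 wild-type C57BL/6J female mice and were measured by single-nucleus RNA sequencing (snRNA-seq), with 1 library per mouse and no transgene or drug in any group. The 6 NP mice were virgin and nulliparous. The 4 control RE mice had reproductive experience, that is mating, pregnancy, birth and rearing of a litter, and the 5 stress RE mice had the same experience with limited nesting material and daily separation from the pups late in lactation. The mice were adult and the groups were matched for age, and tissue was taken after weaning. The punches were bilateral, and the methods state that they also took in cortical, thalamic and ventral hippocampal tissue.

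Libraries totalled 40602582 to 96211264 UMIs, with 4020 to 8877 UMIs in their median nucleus. Batch 1 held NP mice 1 and 2 and stress RE mouse 2, with no control RE mouse, whereas batches 2 and 3 held 2 mice of every group each. Of 2211 barcode sequences found in more than 1 library, 12 belonged to a selected nucleus, and no barcode was shared between selected nuclei.

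The criteria removed nuclei in steps. Of the 133236 nuclei, 3805 had the Dcx count, 676 of these the count of Igfbpl1, Sox11 and Draxin, and 394 of these a UMI of Prox1. The absence of Dlx genes left 281 nuclei, the limit on Gad1 and Gad2 left 217, and the limit on Top2a and Mki67 left 216. The limits fell in the middle of the distribution rather than in a gap. With all other criteria met, 237 nuclei lay just outside at 2 UMIs of Dcx and 98 just inside at 3. Likewise, 178 nuclei had 1 UMI of the 3 early genes and 91 had 2, and 87 nuclei had no UMI of Prox1 and 50 had 1.

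The data went partly against the working name. A set of 3 genes that the criteria did not use, Tcf7l2, Lef1 and Slc17a6, divided the selected nuclei into nuclei of a different kind. Tcf7l2 and Lef1 encode transcription factors of the Wnt pathway and Slc17a6 encodes the vesicular glutamate transporter VGLUT2, and the 3 genes are known together from neurons of the thalamus and habenula. Of the 216 nuclei, 106 had 0 to 2 UMIs of the 3 genes together, 15 had 3 to 10 and 95 had at least 11. The 106 nuclei with up to 2 UMIs are called Tcf7l2-low and the 110 others Tcf7l2-high. This division was chosen after the values were seen, so it gets no test.

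**Figure D1:**
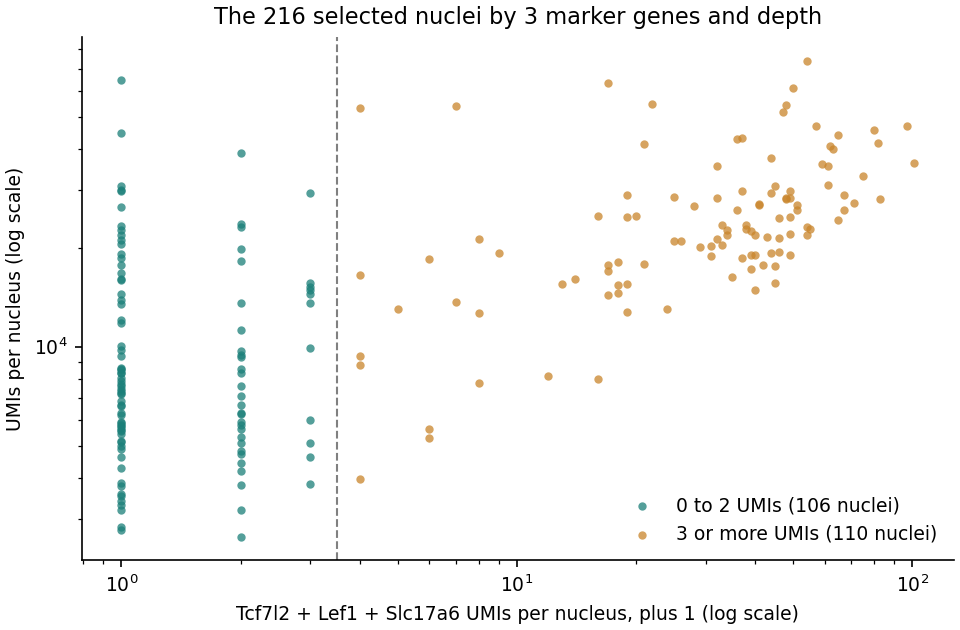
Each point is 1 of the 216 selected nuclei, with the summed UMIs of Tcf7l2, Lef1 and Slc17a6 plus 1 on the horizontal log axis and the UMIs of the nucleus on the vertical log axis. The 106 Tcf7l2-low nuclei had a median of 7590 UMIs and the 110 Tcf7l2-high nuclei a median of 22789.5 UMIs.

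The 2 kinds of nuclei differed in depth. The median was 7590 UMIs in Tcf7l2-low nuclei, which came from 15 mice, and 22789.5 UMIs in Tcf7l2-high nuclei, which came from 14 mice. At these depths the required 3 UMIs of Dcx equal 395 CPM (UMIs scaled to a total of 1000000) in the median Tcf7l2-low nucleus and 132 CPM in the median Tcf7l2-high nucleus, so the same count asked for a lower level in the deeper nuclei. When every nucleus was thinned to 3000 UMIs and 1 UMI each of Dcx, of the early genes and of Prox1 was asked for, 277 of the 94887 nuclei that were deep enough were taken. By their full counts of the 3 genes, 239 of these were Tcf7l2-low and 38 Tcf7l2-high.

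Tcf7l2-high nuclei resembled the many Tcf7l2-rich nuclei of the libraries that had little Dcx. As a reference, 3696 nuclei were taken that had at least 11 UMIs of the 3 genes, at most 1 UMI of Dcx and at least 1 UMI of Prox1. They also met the limits on Gad and cycle genes. In addition they had at most 1 UMI of the early genes together and at most 1 UMI of Pdgfra, Mog and Mag together. Of 5151 genes with at least 30 CPM in either pool, 130 (2.52%) were more than 2-fold apart between Tcf7l2-high and these reference nuclei. Between Tcf7l2-high nuclei and mature granule nuclei with up to 2 UMIs of the 3 genes, 1216 of 5533 genes (22.0%) were. Tcf7l2, whose counts helped to define these groups, had 669 CPM in Tcf7l2-high nuclei, 835 CPM in the reference and 8.5 CPM in granule nuclei. Prkcd, a kinase gene of first-order thalamic neurons, had 283 UMIs in Tcf7l2-high and 9 in Tcf7l2-low nuclei. Its level in Tcf7l2-high nuclei was nevertheless below the reference, at 99.9 CPM ± 46.6 against 265 CPM ± 55.8 (SD, n = 9 mice). Epsti1, Abhd12b, Ccdc141 and Coro6 lay further below the reference, at 2.72 to 6.44 times lower levels. Among genes of at least 30 CPM on the same side in all 9 mice, Dcx and Sox11 had the highest ratios of mouse means over the reference. Both were used by the criteria. Dscaml1, Cpne5 and Ptprt followed at 2.92 to 3.33 times the reference level. By pooled levels of genes with at least 10 CPM in either, 185 of 9235 genes (2.00%) were at least 2-fold higher than in the reference and 27 (0.292%) at least 2-fold lower. Among the higher genes were all 5 measured oligodendrocyte markers (such as Mbp and Mog, median log2 ratio 1.49). For Mog and Mag this was partly by construction, as only the reference had a limit on them. Of 16 measured genes for chromatin and neuronal transcription factors, Bcl11b, Zbtb20, Nfib, Nfix and Tcf4 were higher. Of 12 measured genes of mature granule neurons, Smad3 and Trpc6 were higher, with a median log2 ratio of 0.04. Of 10 measured genes of immature granule neurons, Bcl11b and Sema3c were higher.

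Most Tcf7l2-high nuclei, 95 of 110, belonged to a much larger group of nuclei, in which Dcx was found at a low level. Across the 15 libraries, 9082 nuclei had at least 11 UMIs of the 3 genes and met the limits on Dlx, Gad and cycle genes. Dcx had 46.6 CPM over all of them, 3896 had at least 1 UMI of Dcx, 766 (8.43%) had at least 3, and 95 (1.05%) met every criterion. By contrast, Igfbpl1, an early neuroblast gene, had a UMI in 17 of 110 Tcf7l2-high nuclei (15.5%) and in 65 of 106 Tcf7l2-low nuclei (61.3%). Draxin had a UMI in 1 Tcf7l2-high and 23 Tcf7l2-low nuclei. Sox11 was the only one of the 3 early genes with a UMI in 92 Tcf7l2-high nuclei (83.6%) and in 31 Tcf7l2-low nuclei (29.2%).

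Genes outside the criteria also lay far apart between the 2 kinds. Shox2, a transcription factor gene of thalamic neurons, had a UMI in 52 Tcf7l2-high nuclei and in no Tcf7l2-low nucleus. Fgfr1, a fibroblast growth factor receptor gene, had a UMI in 91 Tcf7l2-low and 52 Tcf7l2-high nuclei, although the latter were deeper. Gm29478 had 495 UMIs in Tcf7l2-high nuclei and none in Tcf7l2-low nuclei, and Ebf1 had 623 against 10. The list of 6 thalamic and habenular markers includes Lef1, which was used for the division and gave 1485 UMIs in Tcf7l2-high and 13 in Tcf7l2-low nuclei. The list summed to 3380 CPM in Tcf7l2-high nuclei (2452 to 4552 CPM over 9 mice), 742 CPM in Tcf7l2-low nuclei (584 to 1165 CPM over 10 mice) and 819 CPM in granule nuclei (726 to 1003 CPM over 15 mice). In Tcf7l2-low nuclei 860 of the UMIs were of Rora, which granule nuclei also express at 810 CPM, and Tnnt1 and Gng8 were at 0.

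**Figure D2:**
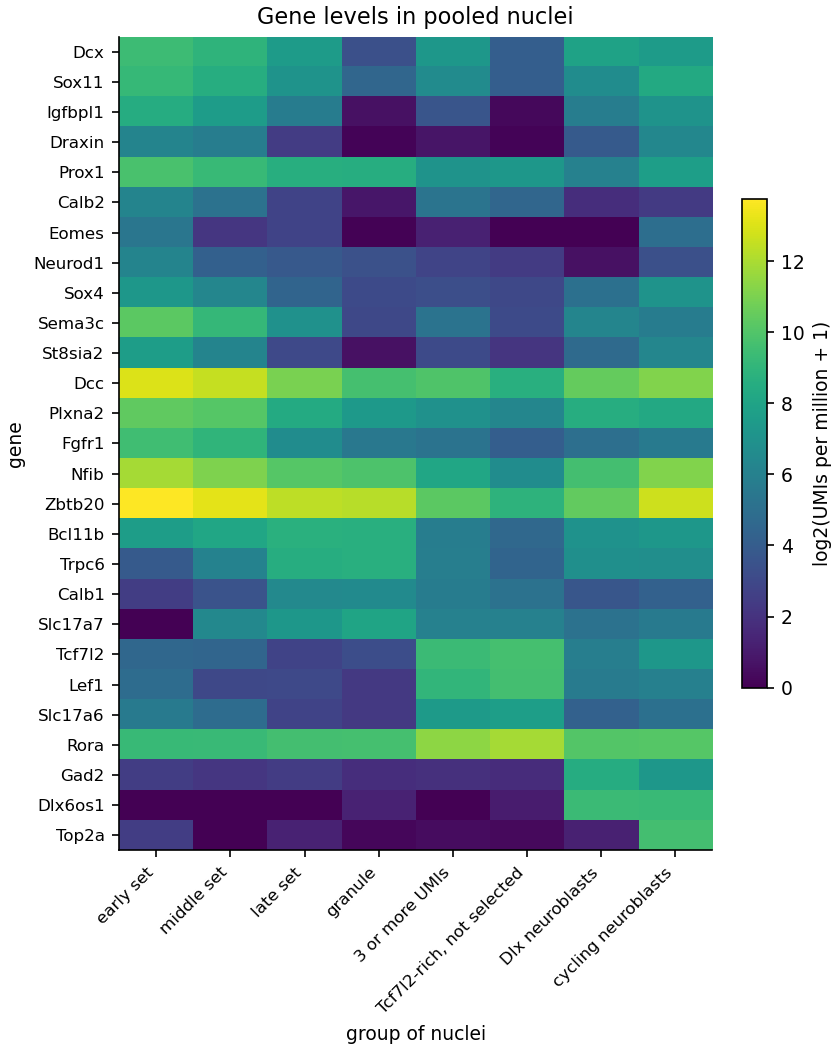
Colour gives the pooled level of each gene (rows) in each group of nuclei (columns) as log2(CPM + 1). The early, middle and late sets are the Tcf7l2-low nuclei ordered by mature granule genes. Tcf7l2, Lef1 and Slc17a6 are high in the column of nuclei with 3 or more UMIs of these genes and in the Tcf7l2-rich nuclei that were not selected, and low in the other columns of granule type.

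Of the 5 markers of the working name, all had a UMI in 6 Tcf7l2-low nuclei and in no Tcf7l2-high nucleus. Exactly 4 of the 5 had a UMI in 31 Tcf7l2-low (29.2%) and 56 Tcf7l2-high nuclei (50.9%). Calb2 shows how depth enters such a count. It had a UMI in 21 of 106 Tcf7l2-low nuclei (19.8%) and in 57 of 110 Tcf7l2-high nuclei (51.8%). At 3000 UMIs per nucleus the shares were 11.7% and 12.7%, against 0.345% of granule nuclei and 0.973% of oligodendrocyte nuclei, a type that should lack the gene. After the same thinning Igfbpl1 was found in 42.7% of Tcf7l2-low and 5.45% of Tcf7l2-high nuclei, against 0.132% of granule and 0.202% of oligodendrocyte nuclei. St8sia2, which encodes the enzyme that builds polysialic acid on NCAM in young neurons, was found in 21.4%, 1.82%, 0.142% and 0.510% of the same 4 groups.

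Scores for doublets, which are droplets holding more than 1 nucleus, were high in 48 of the 216 nuclei (22.2%). These were 15 Tcf7l2-low (14.2%) and 33 of 110 Tcf7l2-high nuclei. Leaving out such nuclei kept 168 of the 216 selected nuclei, 123301 of all 133236 nuclei and 9995 of 10898 granule nuclei, so high scores were more frequent among the selected nuclei. The defining microglial genes Csf1r and Inpp5d were found together in 3 Tcf7l2-low nuclei and 1 Tcf7l2-high nucleus. The 6 oligodendrocyte markers summed to 198 CPM in Tcf7l2-low nuclei (92.8 to 868 CPM over 10 mice) and 151 CPM in granule nuclei (111 to 249.6 CPM over 15 mice), and the 6 astrocyte markers summed to 577 and 253 CPM. Only granule nuclei had a limit on Pdgfra, Mog and Mag, at 1 UMI together, so the oligodendrocyte sums are not fully alike. Of 6 oligodendrocyte precursor markers, only Vcan reached 10 CPM in either, and it was at least 2-fold higher in Tcf7l2-low nuclei. Markers of blood vessels summed to 3.36 CPM in Tcf7l2-low nuclei, with 4 of 6 at 0. Of the olfactory-type neuroblast markers, Sp8, Sp9 and Dlx5 were at 0 in Tcf7l2-low nuclei. The part of these other cells in the results was not tested.

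The genes that set all 216 nuclei apart from mature granule nuclei were taken over the 9 mice with at least 10 selected nuclei. Granule nuclei had at least 2 UMIs each of Prox1 and of Slc17a7, the vesicular transporter of mature granule neurons, and at most 1 UMI of Dcx. They also met the limits on Gad and cycle genes and had at most 1 UMI of Pdgfra, Mog and Mag together. For this comparison all 10898 of them were used. Sema3c, a secreted semaphorin of growing neurons, had 172 CPM ± 78.0 (SD, n = 9 mice) against 6.17 CPM ± 3.28 in granule nuclei. Calb2 had 30.3 CPM ± 15.3 against 2.63 CPM ± 1.26, and Adamts18, a secreted protease gene, had 63.4 CPM ± 36.8 against 2.13 CPM ± 0.930. Some of the highest ratios came from Tcf7l2-high nuclei, such as Ebf1 at 177 CPM ± 131 against 17.3 CPM ± 10.0, with 623 of its 633 UMIs in those nuclei. On the lower side, Stra6, which encodes a receptor for retinol transport, had 5.57 CPM ± 4.87 against 46.9 CPM ± 7.94. Dsp, which encodes desmoplakin and marks granule neurons, had 10.8 CPM ± 5.05 against 69.2 CPM ± 5.74, and Ntf3, a neurotrophin of granule neurons, had 15.4 CPM ± 8.91 against 65.3 CPM ± 9.38. These are descriptions, since the criteria chose the nuclei compared.

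The Tcf7l2-low nuclei carried the genes of young granule neurons. Of 5486 genes with at least 30 CPM in either pool, 409 (7.46%) were more than 2-fold apart between these nuclei and the 9864 granule nuclei with up to 2 UMIs of the same 3 genes, against 1327 of 5817 genes (22.8%) between Tcf7l2-low and the reference nuclei. Over the 10 mice with at least 5 of them, St8sia2 had 61.9 CPM ± 35.2 (SD) against 0.450 CPM ± 0.377 in granule nuclei. Mtss1, which encodes a membrane and actin protein, had 312 CPM ± 151 against 11.7 CPM ± 1.76. Dpysl3, a gene of the collapsin response mediators that act in the growth cone, had 114 CPM ± 56.4 against 5.34 CPM ± 1.06.

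Sema3c can be followed in the Tcf7l2-low nuclei of every mouse. In NP mice 1 to 6 it had 913, 65.6, 89.96, 701, 565 and 470 CPM. In control RE mice 1 to 4 it had 108, 515, 588 and 335 CPM. In stress RE mice 1 to 5 it had 589, 336, 560, 85.7 and 1393 CPM. The groups overlapped over most of their range, and the values outside the range of 108 to 701 CPM came from mice with 2 to 6 such nuclei. Each of the 15 values lay above the 6.64 CPM ± 4.09 of granule nuclei.

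Gene lists were compared between Tcf7l2-low and granule nuclei, over genes with at least 10 CPM in either. Of all 9514 such genes, 538 (5.65%) were at least 2-fold higher in Tcf7l2-low nuclei and 126 (1.32%) at least 2-fold lower, with a median log2 ratio of 0.10. Of 18 neuroblast genes, 8 were measured, and a gene could enter by its level in either kind of nuclei alone. Of these 8, 7 were at least 2-fold higher. Among them were Eomes and Neurod1, transcription factor genes of intermediate progenitors and young granule neurons, and Sox4. The lists overlap, as Calb2 and Sema3c stand in more than 1 list and Slc17a6 was also used for the division. Of 12 measured genes of immature granule neurons, Calb2, Camk4, Sema3c, Tubb3 and Stmn2 were higher and Dsp was lower. Of 13 measured genes of mature granule neurons, none was at least 2-fold higher, and Plk5 and Slc17a7 were lower, with a median log2 ratio of −0.73. Slc17a7 was lower by construction, as granule nuclei had to have at least 2 UMIs of it.

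The lists for neuronal growth and wiring also held genes at this ratio, and the lists were not tested against each other. Of 22 genes for microtubules and migration, 6 were at least 2-fold higher, namely Tubb3, Stmn1, Stmn2, Dpysl3, Dpysl5 and Gap43. Of 12 genes for polysialic acid and adhesion, St8sia2, Cntn2 and L1cam were higher, all known from growing axons. Of 20 axon guidance genes, Robo1, Dcc, Plxna2, Sema3c and Ephb1 were higher and Slit1 was lower. Of 20 genes for chromatin and neuronal transcription factors, 4 were higher, among them Sox4, Ezh2 and Lhx2, where Ezh2 encodes the methyltransferase for H3K27.

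Lists for transmission held genes at this ratio at a share near the 5.65% of all genes. Of 12 measured genes for chloride transport and GABA-A receptors, Gabrg3 was at least 2-fold higher, with a median log2 ratio of −0.47 over the list. Of 14 glutamate receptor genes, Grik1 was higher, with a median of −0.16. Radial glia and stem cell genes had only 2 of 15 members at 10 CPM or more, and cell cycle genes 3 of 14, and none of these was at least 2-fold apart. The limit on Top2a and Mki67 bears on the cell cycle genes. Of 10 measured Wnt and Notch genes, none was higher and Jag1 was lower.

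To describe how the Tcf7l2-low nuclei varied among themselves, they were ordered by the summed CPM of 14 genes of mature granule neurons and cut into an early, a middle and a late set of 36, 35 and 35 nuclei, each from 13 mice. The sets had medians of 5692, 6234 and 17716 UMIs, so the required 3 UMIs of Dcx equalled 527, 481 and 169 CPM at these medians. Levels of the genes in the criteria are therefore bound to the depth of each set. Dcx had 692, 489 and 187 CPM in the sets and 9.3 CPM in granule nuclei, and Igfbpl1 had 357, 196, 54.0 and 0.5 CPM. Prox1 had 880, 601, 387 and 375 CPM.

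Early and late sets were compared over genes with at least 10 CPM in either. Of all 10082 such genes, 1966 (19.5%) were at least 2-fold higher in the early set and 1336 (13.3%) at least 2-fold lower. Of 18 neuroblast genes, 11 were measured. Of these 11, 8 were at least 2-fold higher in the early set, and Mpped1 and St18 were at least 2-fold lower. Eomes, which encodes TBR2, had 41.2 CPM in the early set from 9 UMIs, 1 UMI in the middle set, 4 UMIs in the late set (5.8 CPM) and 0.0 CPM in granule nuclei. Neurod1 had 73.3, 17.5, 13.1 and 9.8 CPM in the same order, and Sox4 had 151, 76.9, 20.4 and 7.6 CPM. Calb2 had 73.3, 34.9, 5.8 and 0.8 CPM. The early set thus had the highest level of these 4 genes, and granule nuclei the lowest.

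Genes for migration and for axon guidance differed in their order. Of 22 genes for microtubules and migration, 9 were at least 2-fold higher in the early than in the late set and none was lower. Of 20 axon guidance genes, 6 were higher and 8 were lower, the latter being Robo2, Robo3, Slit1, Slit3, Unc5c, Epha5, Epha6 and Epha7, with a median log2 ratio of −0.14 against 0.25 over all genes. Sema3c had 1223, 577, 123 and 6.8 CPM in the early, middle and late set and in granule nuclei, and St8sia2 had 202, 73.4, 7.3 and 0.5 CPM. Dcc, the receptor gene for netrin, had 8137, 6038, 2040 and 836 CPM, and Plxna2, a plexin receptor gene for semaphorins, had 1315, 1101, 337 and 173 CPM. Within the Roundabout receptors of Slit proteins the order was opposite. Robo1 had 2304, 1789, 709 and 276 CPM, whereas Robo2 had 197, 524, 988 and 972 CPM. Slit1, which encodes a ligand of both, had 22.9, 154, 320 and 472 CPM. Its early value lay near the 13.7 CPM that 3 UMIs give in that set. Fgfr1 had 729, 503, 101 and 44.9 CPM.

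The chloride transporters, which set whether GABA excites or inhibits a neuron, lay in opposite order. Slc12a2, which encodes the importer NKCC1, had 128, 83.9, 54.0 and 44.8 CPM, and Slc12a5, which encodes the exporter KCC2, had 18.3, 48.9, 89.0 and 116 CPM. The early value of Slc12a5 rests on few UMIs, as 3 UMIs give 13.7 CPM in that set. Of 13 genes for chloride transport and GABA-A receptors, 2 were at least 2-fold higher in the early set, Slc12a2 and Gabra3, and 6 were lower. Of 14 glutamate receptor genes, Grin2d and Gria4 were higher and 6 were lower, among them Grin2a, which is one of the genes that set the order. The GABA-A subunit gene Gabrb1 had 348 CPM in the early and 1423 CPM in the late set, and Gria1, an AMPA receptor gene, had 1626 CPM in the early and 3477 CPM in the late set.

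Of 20 genes for chromatin and neuronal transcription factors, 11 were at least 2-fold higher in the early set, and Bcl11b and Dnmt3a were lower. Ezh2 had 243, 119, 32.1 and 28.9 CPM, and Nfib, which encodes a nuclear factor of hippocampal development, had 3812, 2152, 1097 and 949 CPM. Zbtb20, a gene of hippocampal identity, had 13689, 9409, 5369 and 4921 CPM. Bcl11b, which encodes CTIP2 of granule neurons, had 197, 283, 422 and 401 CPM. Zbtb16 had 36.7, 97.8, 406 and 429 CPM, and Htr4, a serotonin receptor gene of granule neurons, had 50.4, 101, 376 and 439 CPM. Dsp had 2 UMIs each in the early and middle sets, under the 3 UMIs taken as the floor, and 46.7 CPM in the late set and 78.7 CPM in granule nuclei.

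**Figure D3:**
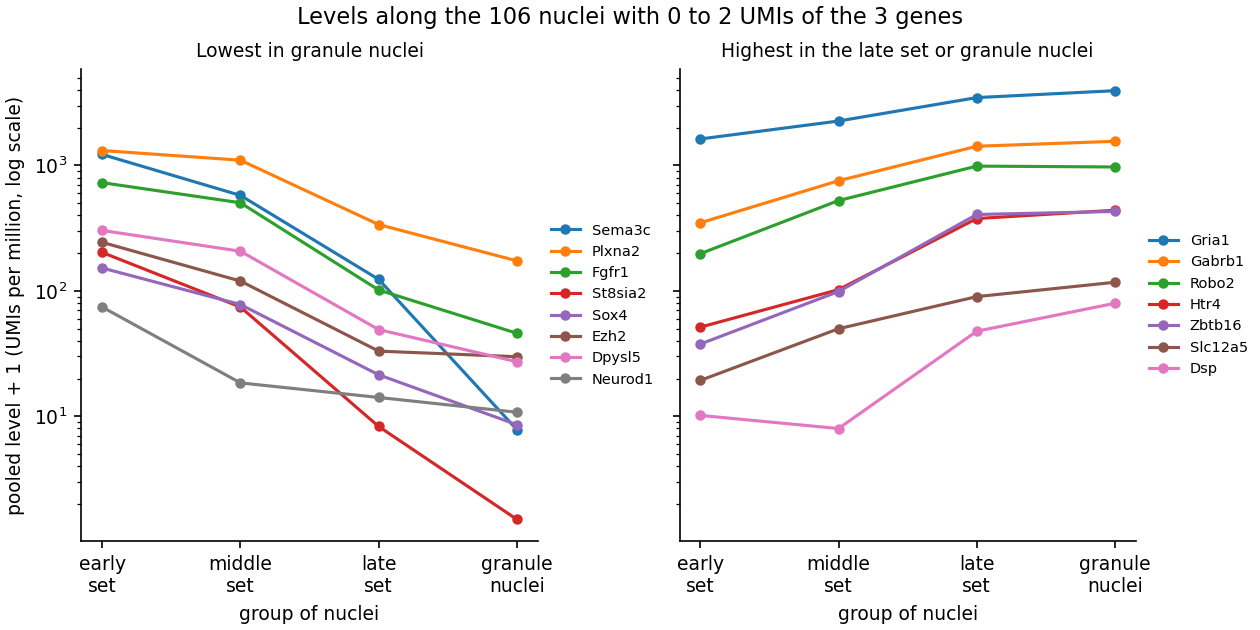
Points give the pooled level of each gene plus 1, in CPM on a log axis, in the early, middle and late sets of the Tcf7l2-low nuclei and in granule nuclei. In the left panel Sema3c goes from 1223 to 6.8 CPM, and in the right panel Slc12a5 goes from 18.3 to 116 CPM. The first value of Slc12a5 is near the 13.7 CPM that 3 UMIs give in the early set.

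Receptors for hormones and dopamine were mostly scarce in Tcf7l2-low nuclei. Drd2, Drd4, Drd5, Esr2, Oxtr and Avpr1a had no UMI in the 106 nuclei, Drd1 had 2 UMIs and Esr1 had 1, which at this depth allows no statement on a change. Prlr, the prolactin receptor gene, had 10.1 CPM against 12.4 CPM in granule nuclei, and Pgr, the progesterone receptor gene, had 10.9 against 18.6 CPM. The growth factor receptor genes Igf1r and Insr had 370 and 177 CPM against 229 and 118 CPM. Of 12 measured receptor genes, Fgfr1 alone was at least 2-fold higher. The 44 UMIs of Drd2 among the selected nuclei all came from Tcf7l2-high nuclei.

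Corticosteroid receptor genes had lower levels in Tcf7l2-low than in granule nuclei. Nr3c1, which encodes the glucocorticoid receptor, had 32.1 CPM in the early, 52.4 CPM in the middle and 75.9 CPM in the late set and 107 CPM in granule nuclei. Nr3c2, which encodes the mineralocorticoid receptor, had 889, 1174, 1176 and 1524 CPM. Of 7 measured genes that respond to glucocorticoids, such as Fkbp5 at 76.5 against 111 CPM, none was at least 2-fold apart. Between the early and late sets, 3 of 7 were at least 2-fold lower in the early set, Zbtb16, Klf9 and Ddit4, and Mertk was higher. All 5 measured microglia markers and 2 of 3 measured astrocyte markers were also at least 2-fold higher in the early set. Of 3 measured oligodendrocyte markers, 1 was lower. The part of other cells in the level of Mertk was not tested.

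For comparison, 190 nuclei with Dlx genes were taken and named Dlx neuroblasts. They averaged 19084 UMIs, against 11225 in Tcf7l2-low nuclei. All 4 measured olfactory-type neuroblast markers and all 4 measured interneuron markers (Slc32a1, Lhx6, Adarb2 and Sst) were at least 2-fold higher in them. The criteria bear on this, as only the selected nuclei had limits on Dlx and Gad genes. A marker could also enter by its level in Dlx neuroblasts alone. Whether all of them are neuroblasts was not tested. Fgfr1 had 341 CPM ± 187 in Tcf7l2-low nuclei and 26.3 CPM ± 15.8 (SD, n = 9 mice) in Dlx neuroblasts, and Neurod2, a transcription factor gene of glutamatergic neurons, had 89.1 CPM ± 63.1 against 7.50 CPM ± 5.93. Of 13 measured genes of mature granule neurons, 9 were at least 2-fold higher in Tcf7l2-low nuclei. Of 20 genes for chromatin and transcription factors, 11 were higher, among them Bcl11b, Nfia, Nfib, Zbtb20, Tbr1 and Emx2. Among all 9889 measured genes, 4.92% were at least 2-fold higher and 6.92% lower.

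The first comparison of the groups asked whether the share of selected nuclei differed with reproductive experience and with stress. NP mice 1 to 6 held 7, 2, 9, 23, 19 and 31 selected nuclei. Control RE mice 1 to 4 held 15, 12, 15 and 9, and stress RE mice 1 to 5 held 29, 10, 9, 7 and 19. As a share of nuclei these were 0.112, 0.0298, 0.0995, 0.294, 0.221 and 0.398% in NP, 0.148, 0.114, 0.130 and 0.0859% in control RE, and 0.355, 0.174, 0.0709, 0.0837 and 0.203% in stress RE mice. All control RE values lay within the range of both other groups. The 3 highest shares were in NP mice 4 and 6 and stress RE mouse 1, whose libraries had 7198, 6743 and 8877 UMIs in the median nucleus, and all 3 belonged to batch 3. Batch 3 also held control RE mice 1 and 3 at 0.148 and 0.130% and stress RE mouse 3 at 0.0709%. Stress RE mouse 5, of batch 2, had 7265.5 UMIs in its median nucleus and a share of 0.203%.

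The mean share was 0.192% ± 0.138 (SD, n = 6) in NP mice, 0.119% ± 0.0265 in control RE mice (n = 4) and 0.177% ± 0.114 in stress RE mice (n = 5). Control RE minus NP was −0.0728 percentage points (p = 0.371, two-sided exact permutation test over mice). Stress RE minus control RE was 0.0579 points (p = 0.413, exact permutation test), and stress RE minus NP was −0.0149 points (p = 0.857, exact permutation test). For Tcf7l2-low nuclei alone the same differences were −0.0115, 0.00668 and −0.00479 points, with no test. Adjusted over the 9 tests of this kind all p-values were 0.900. The differences were smaller than the SD of NP and stress RE mice but larger than that of control RE mice in the first 2 comparisons. The smallest p that these tests can give is 0.00433 to 0.0159. Within batches 2 and 3, control RE minus NP was −0.0605 and −0.206 points (p = 0.111, exact permutation within batches). For stress RE minus control RE they were 0.0435 and 0.0738 points (p = 0.500, exact permutation within batches). Stress RE minus NP was 0.103, −0.0170 and −0.133 points in batches 1, 2 and 3 (p = 0.815, exact permutation within batches). The direction of 2 of the 3 differences turned when nuclei were thinned to 3000 UMIs, to 0.0135 points for control RE minus NP and −0.0538 points for stress RE minus control RE.

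**Figure D4:**
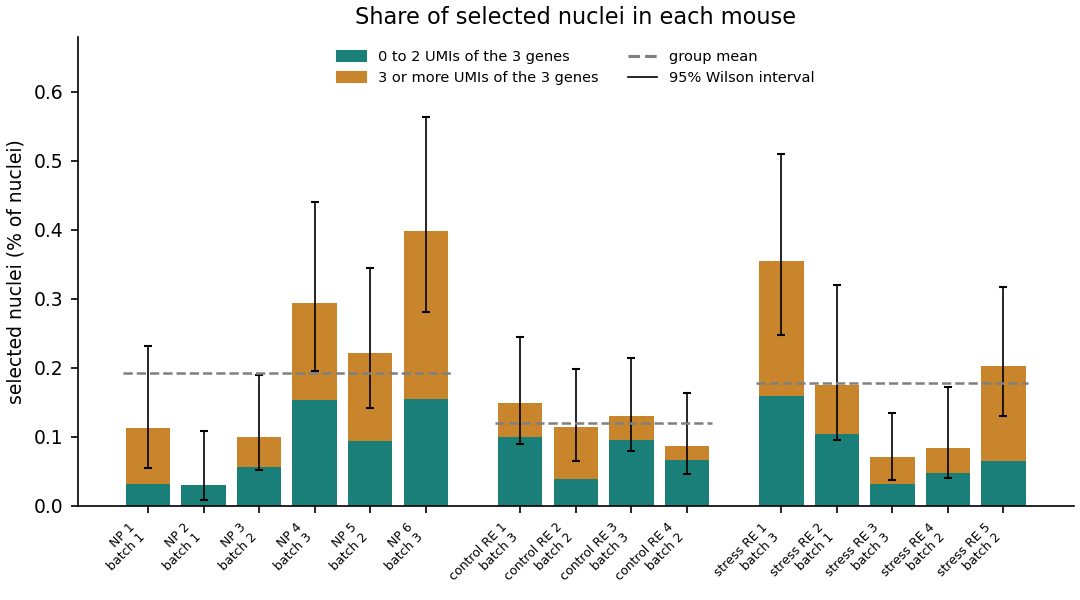
Bars give the selected nuclei as percent of all nuclei in each of the 15 mice, split into Tcf7l2-low (0 to 2 UMIs of the 3 genes) and Tcf7l2-high nuclei. Thin lines are 95% Wilson intervals, which cover counting error only, and dashed lines are group means of 0.192%, 0.119% and 0.177%.

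The 407 to 1168 granule nuclei per mouse gave another denominator. Taken per 100 granule nuclei, the selected nuclei came to 2.19 ± 1.33 (SD, n = 6) in NP mice, 1.72 ± 0.719 in control RE mice (n = 4) and 1.87 ± 0.475 in stress RE mice (n = 5). The differences were −0.469 for control RE minus NP (p = 0.552, exact permutation test), 0.146 for stress RE minus control RE (p = 0.714) and −0.322 for stress RE minus NP (p = 0.649), each below the spread between mice. Within batches 2 and 3 the differences were −1.06 and −0.959, then 0.379 and −0.279, and stress RE minus NP was 1.15, −0.685 and −1.24 in batches 1, 2 and 3. Stress RE minus control RE thus turned its direction between batches. For Tcf7l2-low nuclei per 100 granule nuclei low in the same 3 genes, the values were 0.0690 for control RE minus NP, −0.195 for stress RE minus control RE and −0.126 for stress RE minus NP, with no test, so the first 2 had the other sign.

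The Tcf7l2-low nuclei numbered 2, 2, 5, 12, 8 and 12 in NP, 10, 4, 11 and 7 in control RE and 13, 6, 4, 4 and 6 in stress RE mice. The NP mice had 14 nuclei in the early, 16 in the middle and 11 in the late set. The control RE mice had 8, 11 and 13, and the stress RE mice 14, 8 and 11. These pooled counts are a description and were not tested.

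A maturation index was fixed for the selected nuclei as the UMIs of 13 mature genes in percent of the UMIs of these and 14 early genes, none of them in the criteria. It had values of 90.9, 87.3 and 91.3% in NP mice 4, 5 and 6, of 95.01, 92.1 and 93.3% in control RE mice 1, 2 and 3, and of 92.5, 95.9 and 90.7% in stress RE mice 1, 2 and 5. In these 9 mice the NP values lay below all control RE values. This did not hold for the mice with fewer than 10 selected nuclei, which were not tested, as NP mice 1, 2 and 3 had 92.0, 96.7 and 93.6% and control RE mouse 4 had 85.7%, the lowest of the 15 mice. Stress RE mice 3 and 4 had 90.4 and 92.6%. The means were 89.8% ± 2.22 (SD, n = 3), 93.5% ± 1.44 and 93.0% ± 2.65. Control RE minus NP was 3.65 points (p = 0.100, exact permutation test), which is the smallest p that 3 against 3 mice can give. Stress RE minus control RE was −0.458 points (p = 0.900, exact permutation test) and stress RE minus NP was 3.19 points (p = 0.300, exact permutation test). With nuclei of at least 2 UMIs of Dcx, which lets all 15 mice enter, control RE minus NP was 0.245 points (p = 0.905, exact permutation test). Without nuclei of high doublet score it was 2.10 points, but control RE mouse 2 then had 8 nuclei and did not enter. In Tcf7l2-low nuclei, over mice with at least 5 of them, it was 2.47 points with no test, and the groups overlapped, at 85.9 to 97.0% in 4 NP and 90.3 to 95.9% in 3 control RE mice. The index includes Slc17a6 among its early genes and had 91.0% in Tcf7l2-high and 93.9% in Tcf7l2-low nuclei, so the share of Tcf7l2-high nuclei bears on it. That share was 47.8, 57.9 and 61.3% in the NP, 33.3, 66.7 and 26.7% in the control RE and 55.2, 40.0 and 68.4% in the stress RE mice used. Within the Tcf7l2-low nuclei the index ran from 69.8% in the early set over 87.4% to 96.8% in the late set, which is fixed by the ordering.

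Gene expression was compared between groups on UMIs summed per mouse over the selected nuclei, for the same 9 mice. The edgeR quasi-likelihood test with Benjamini-Hochberg adjustment called none of the 5341 genes tested (0%) at an adjusted p under 0.05 in any of the 3 comparisons. At an unadjusted p under 0.05 there were 192 genes (3.59%) for control RE minus NP, 172 (3.22%) for stress RE minus control RE and 128 (2.40%) for stress RE minus NP. DESeq2 called 2 genes, Grm8 and C130073E24Rik, both lower in control RE than in NP, and none in the other comparisons. With no filter on low counts, edgeR called 41, 17 and 27 of 19404 genes in the same order of comparisons.

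Grm8, a presynaptic metabotropic glutamate receptor gene, had the lowest p. It had 256, 324 and 157 CPM in NP mice 4, 5 and 6, then 30.1, 29.0 and 68.7 CPM in control RE mice 1, 2 and 3, and 105, 247 and 143 CPM in stress RE mice 1, 2 and 5. All control RE values lay below those of both other groups. The log2 fold change was −2.51 for control RE minus NP (SE 0.43, adjusted p = 0.282 by edgeR) and 1.92 for stress RE minus control RE (SE 0.45, adjusted p = 0.999 by edgeR). Of its 609 UMIs in all selected nuclei, 535 came from Tcf7l2-high nuclei. The next genes by p for control RE minus NP were Etv1, an ETS transcription factor gene, at a log2 of −2.20 (SE 0.42, adjusted p = 0.297 by edgeR), and C130073E24Rik at −1.71 (SE 0.33, adjusted p = 0.297 by edgeR). Both also had most of their UMIs, 205 of 221 and 639 of 729, in Tcf7l2-high nuclei.

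The other leading genes were further from the threshold. Eda, Stox1 and Pnpt1 had log2 fold changes of 1.25, 2.39 and 0.96 for control RE minus NP. Car10 and Gm19938 had 0.87 and 1.29, and 9630028H03Rik, Actr2 and Cwc22 had −1.73, −0.86 and −1.19, for stress RE minus control RE. Larp1b and Abcc8 had 1.00 and 1.04, and Cc2d2a, Sugp1 and Msi2 had −1.18, −1.06 and −0.90, for stress RE minus NP. All of these had adjusted p-values of 0.999 or more by edgeR.

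The gene lists gave no called gene in these comparisons. Of 11 tested genes of mature granule neurons, 10 had a log2 fold change above 0 for control RE minus NP, with a median of 0.32 against 0.01 over all genes, of which 2763 of 5341 were above 0, and 10 for stress RE minus NP, with a median of 0.21 against 0.00 over all genes, of which 2692 were above 0. Both comparisons share the NP mice. The sums pool both kinds of nuclei, and Tcf7l2-high nuclei gave 2857786 of the 4047635 UMIs in all selected nuclei. The part of Tcf7l2-high nuclei in these list values was not tested. Of 15 genes for chromatin and transcription factors, 12 were above 0 for control RE minus NP (median 0.15) and 2 for stress RE minus control RE (median −0.16, with 2651 of all 5341 genes above 0). These 2 comparisons share the control RE mice. Nr3c1 had a log2 fold change of 0.25 (SE 0.31) for control RE minus NP, 0.01 for stress RE minus control RE and 0.26 for stress RE minus NP. None of the 12 tested hormone and dopamine receptor genes was called.

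Oligodendrocyte transcripts moved with the groups. The 6 markers summed to 162 to 598 CPM in the selected nuclei of the 3 NP mice, 53.2 to 132 CPM in the 3 control RE mice and 63.2 to 285 CPM in the 3 stress RE mice, so NP and control RE did not overlap. In Tcf7l2-high nuclei the pooled sums were 322 CPM in NP mice (50.9 to 644 CPM over 4 mice) and 42.7 CPM in control RE mice (29.0 to 46.1 CPM over 2 mice), whereas in Tcf7l2-low nuclei they were 214 CPM (138 to 432 CPM over 4 mice) and 233 CPM (108 to 868 CPM over 3 mice) and overlapped. Mbp, the gene for myelin basic protein, had a log2 fold change of −2.20 for control RE minus NP. In control RE mice Opalin was at 0 and the other 5 markers had UMIs. The part of these transcripts in the group differences was not tested.

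In the mm10 build, Dcx lies on chromosome X (143855842 to 143933311, minus strand), Igfbpl1 on chromosome 4 (45809468 to 45826923, minus strand) and Prox1 on chromosome 1 (190118035 to 190170714, minus strand). Sema3c lies on chromosome 5 (17574281 to 17730268, plus strand), St8sia2 on chromosome 7 (73939119 to 74013690, minus strand) and Tcf7l2 on chromosome 19 (55741820 to 55933654, plus strand). All 6 are annotated as protein-coding genes. As the RNA is nuclear, reads from introns are part of the counts for each gene.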

How the data were processed

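Nuclei of dHF micropunches from 15 mice were measured with the 10x Genomics 3′ v3.1 chemistry. The authors made the deposited UMI counts for 32285 genes with Cell Ranger 7.1.0 (7.0.0 in the file headers) against mm10. The submitters' notes name mm10 and GRCm39. The counts are raw and carry no correction with SoupX or DoubletFinder. Depth was 4020 to 8877 UMIs in the median nucleus per library, and counting intervals and floors cover counting error only. The selected nuclei and the gene lists were chosen with earlier results of these data known.

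The criteria were applied to barcodes with at least 500 genes. Doublets were scored with Scrublet in scanpy 1.11.5, and the highest-scoring 0.8% of barcodes per 1000 barcodes were marked and kept. CPM are UMIs scaled to a total of 1000000 per pool, and 2-fold counts used a pseudocount of 5 CPM. Dlx neuroblasts had at least 3 UMIs of Dcx and at least 2 of Dlx1, Dlx2 and Dlx6os1 together.

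Groups were compared over mice with two-sided exact permutation tests (SciPy 1.17.1) and, for mice with at least 10 selected nuclei, with edgeR 4.0.16 in R 4.3.3 (filterByExpr, TMM, quasi-likelihood, 3 groups in 1 fit), tested on simulated data. The simulation changed 200 of 5341 genes for stress RE minus control RE. There edgeR recovered 81% of genes changed by a log2 of 2 and 33% of those changed by 1, with 4 false calls. Most changes of a log2 of 1 were thus missed. The alternatives were DESeq2 1.42.0, the authors' tool, other criteria, thinning, permutation within batches, batch as a term, and leaving out doublets or mice. Named genes were the 15 with the highest and the 15 with the lowest ratio of mean CPM over granule nuclei among genes of at least 30 CPM on the same side in every mouse, the 5 on either side over Dlx neuroblasts, the 3 with the lowest p in each direction, and the list genes. The text gives those that show a result, and a few genes are not reported here. The same ranking for Tcf7l2-low and Tcf7l2-high nuclei, and Shox2, Inpp5d and the likeness counts, were added after values were seen. Gene positions were taken from GENCODE M21.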

Additional observations from a re-analysis of the deposited data

How the results depend on the processing

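No paired analysis was possible because the replicate numbers were given in accession order and pair no mice. Among 138 alternatives with an exact permutation test p ran from 0.111 to 1, and none was under 0.05. Many of these tests could not reach 0.05, as the smallest p was 0.100 for the index, 0.167 to 0.333 for it within batches, and 0.0556 for share and ratio within batches where control RE mice entered. Directions were less stable, and the cause was not tested. With nuclei thinned to 3000 UMIs the share gave 0.0135 points for control RE minus NP and −0.0538 for stress RE minus control RE, and the ratio per 100 granule nuclei gave −0.800 for stress RE minus control RE. That ratio was −0.0734 without doublets and −0.430 with stricter granule nuclei. With Tcf7l2-low nuclei alone, an alternative added after the data were seen, the share gave −0.0115 for control RE minus NP and the ratio gave 0.0690 for control RE minus NP and −0.195 for stress RE minus control RE. With no Prox1 criterion stress RE minus NP was 0.0337 points for the share and 0.356 for the ratio, and with log2 values 0.0628 and 0.0238. With at least 2 UMIs of Dcx the index gave −0.231 points for stress RE minus NP and 0.245 for control RE minus NP, and without doublets stress RE minus NP was 0.281 points. Stress RE mouse 2 did not enter the latter, as it had 8 nuclei left. Leaving out 1 mouse at a time, the share ran from −0.105 (without NP mouse 2) to −0.0317 (NP mouse 6) for control RE minus NP, 0.0134 to 0.0845 (stress RE mice 1 and 3) for stress RE minus control RE and −0.0594 (stress RE mouse 1) to 0.0262 (NP mouse 6) for stress RE minus NP. The ratio ran from −0.809 to −0.0785 (NP mice 2 and 6), −0.132 to 0.444 (control RE mice 4 and 3) and −0.663 to 0.0678 (NP mice 2 and 6). The index ran from 2.37 to 4.38 (NP mice 5 and 6), −1.89 to 0.726 and 1.76 to 4.38 points (stress RE mice 2 and 5 in both). No gene was called without any 1 of the 9 mice (0 to 0). DESeq2 called 2 genes for control RE minus NP. With no filter on low counts edgeR called 41, 17 and 27 of 19404 genes for control RE minus NP, stress RE minus control RE and stress RE minus NP. Of these, 37, 6 and 22 were lower, and 3, 0 and 2 had under 50 UMIs. The mouse with the most UMIs of a called gene held a median of 35.2, 29.5 and 40.4% of them. The index with at least 5 UMIs of Dcx was not run, as too few mice had 10 such nuclei, nor were genes over mice with at least 20 selected nuclei. All shares rest on 2 to 31 selected nuclei per mouse.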

Other observations

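Drd3, a dopamine receptor gene, had 9 UMIs in 7 of the 106 Tcf7l2-low nuclei. Its level was 36.7 CPM in the early set and 0.2 CPM in granule nuclei. The gene was picked out after its values were seen, and the counts are too few for a comparison of the groups.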
